A study of Mus musculus with 8 samples.

Results

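The absorptive surface of the intestine was examined through 34 genes for the brush border and the actin cytoskeleton beneath it, picked by gene name from the 54139 genes of the deposited tables. They comprise 2 actins, 9 genes of the microvillus core and its membrane linkers, 6 unconventional myosins, 4 genes of the intermicrovillar adhesion complex, 3 small GTPases, 6 genes for filament turnover, crosslinking and adhesion, and 4 keratins. RNA came from mouse intestinal epithelial cells, 4 libraries from animals with the Villin-Cre transgene alone (WT) and 4 from animals with Rictor Flox and Villin-Cre (cKO). Both groups therefore carried Cre, whose expression is driven by regulatory sequence of the villin gene, and Vil1, the endogenous villin gene, is one of the 34. Rictor is the defining subunit of mTOR complex 2, a kinase complex known to act on the actin cytoskeleton. The comparison asks what happens to epithelial transcripts when it is deleted. The sources used here give no age, sex, intestinal segment or isolation method, nor whether the libraries were made from separate mice, so p-values measure only the spread between these libraries.

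The brush border is a dense carpet of microvilli on the apical face of enterocytes, each held up by a bundle of parallel actin filaments. Villin, fimbrin and espin bundle the filaments, ezrin and class I myosins tie them to the membrane, and protocadherins link the tips of neighbouring microvilli. The bundles are rooted in a terminal web of actin, myosin and keratin filaments. Enterocytes build this structure as they leave the crypt and move up the villus, so many of its genes are markers of the mature absorptive cell.

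No difference between genotypes was established for any of the 34 genes. All 34 passed the filter on low counts, and 0 had an adjusted p under 0.05 in the quasi-likelihood test of edgeR, against 0.0136% of the 14701 genes tested (0.00680% higher and 0.00680% lower in cKO). DESeq2 and limma called 0 of the 34 too. In edgeR with all 8 libraries Anks4b alone had an unadjusted p under 0.05, which 3.90% of all genes had. Without WT library 3 the count of members with such a p was 5. In 0 of the 34 did the 4 WT and 4 cKO values stand clear of each other, against 3.21% of all genes tested (1.41% higher and 1.80% lower in cKO). The estimate of the log2 fold change, cKO over WT, was above 0 for 21 genes and below 0 for 13, with a median of 0.067 and a range from -0.43 to 0.19. Over all genes tested the median was 0.0022, and 50.5% of the estimates were above 0. Every adjusted p was at least 0.921.

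For 24 of the 34 genes the 95% interval of the fold change lay within 1.5-fold of no change in both directions. Of all genes tested, 54.6% had an interval within this band. The 10 members whose interval reached past 1.5-fold were Actb, Pls1, Espn, Eps8, Pdzk1, Cdhr2, Cdhr5, Anks4b, Tpm3 and Krt20. The intervals of Eps8 and Anks4b were narrower than that of Vil1, which lay within the band, but their estimates were further from 0. In bulk RNA, fewer cells of a type and less RNA per cell cannot be told apart, and this holds for every value given here.

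**Figure D1:**
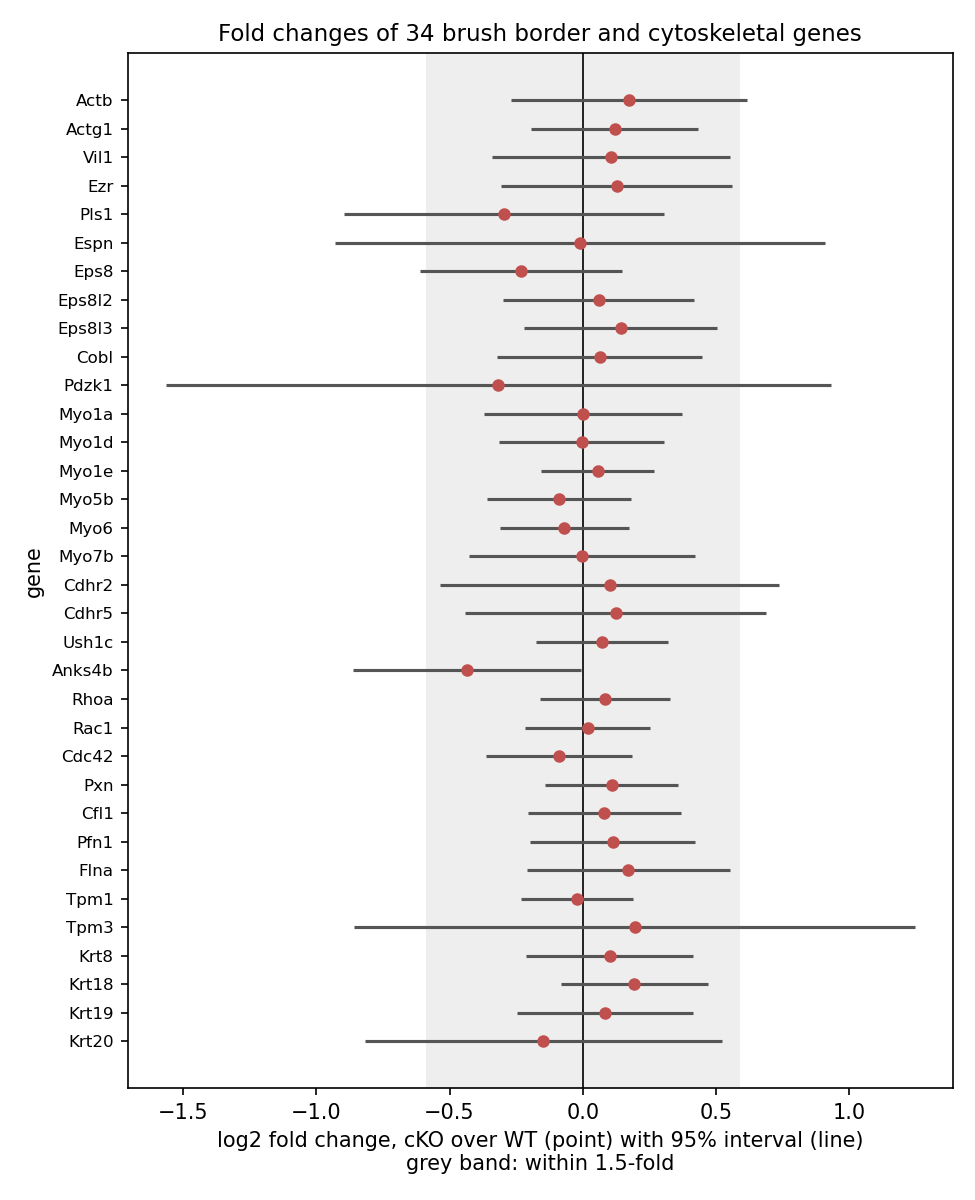
Log2 fold change, cKO over WT, of the 34 genes by role, with the 95% interval from edgeR. Estimates run from -0.43 (Anks4b) to 0.19, and the widest intervals are those of Pdzk1, Tpm3 and Espn.

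The libraries held between 15110451 and 18708335 counts. Rictor itself was at 41.7, 42.4, 57.3 and 51.4 CPM (counts scaled to a fixed library total) in WT libraries 1 to 4 and at 30.4, 39.6, 20.8 and 40.6 CPM in cKO libraries 1 to 4, so every cKO value lay below every WT value and RNA of the targeted gene was present in each cKO library (log2 fold change -0.55 ± 0.20, adjusted p = 0.921 in edgeR). As a check of the labelled cell type, Epcam, a surface protein of epithelia, was strongly expressed. Its mean CPM was 1646 ± 77.8 in WT and 1572 ± 63.6 in cKO (SD, n = 4 each). Of 15 smooth muscle and fibroblast markers 3 passed the filter, with a summed level of 12.05 to 18.3 CPM in WT and 14.4 to 23.9 CPM in cKO. Markers of T cells and leukocytes, 14 of 14 tested, summed to 242 to 705 CPM in WT and 297 to 869 CPM in cKO, highest in cKO library 3. Their median log2 fold change was 0.40, with 12 estimates above 0 and 2 below, and 0 had an unadjusted p under 0.05 in edgeR. Of 8 enteroendocrine markers, genes of the hormone-secreting cells, 5 had an unadjusted p under 0.05 with the higher value in cKO, against 1.83% of all genes, with a median log2 fold change of 0.34 and a smallest adjusted p of 0.489 in edgeR. The part of these cells in the values of the members was not tested.

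A pair of libraries stood apart in the members. WT library 3 had the highest value of all 8 libraries for 16 members and the highest WT value for 29. The cKO library 3 had the highest of all 8 for another 16 members and the highest cKO value for 23. WT library 3 was high in some genes of microvilli and not in others. Its value over the mean of the other WT libraries was 4.31 for Pdzk1, 2.97 for Espn, 2.25 for Cdhr2 and 2.06 for Pls1. This ratio was 1.05 for Myo1e, 1.06 for Myo6, 1.12 for Myo1d and 1.17 for Ush1c. Among the keratins it was 1.01 for Krt8 and 0.884 for Krt19, but 1.97 for Krt20. In cKO library 3 the keratin score, the median over the 4 keratins of log2 CPM centred on the 8 libraries, was 0.40, while the other 7 libraries lay between -0.10 and -0.041.

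A score of the same kind over 19 enterocyte markers, none of them a member, was -0.42, -0.18, 0.91 and -0.26 in WT libraries 1 to 4 and 0.34, -0.20, -0.11 and -0.11 in cKO libraries 1 to 4. WT library 3 was thus the highest in enterocyte markers and cKO library 1 the next. The median log2 fold change of the 19 markers was -0.15, with 6 estimates above 0 and 13 below. A further list of 8 villus tip enterocyte markers leaned the other way. Its median was 0.12, with 7 estimates above 0 and 1 below. The villus tip score was -0.57, -0.40, 0.68 and -0.39 in WT libraries 1 to 4. In cKO libraries 1 to 4 it was 0.29, 0.057, 0.022 and -0.044. In neither list did a marker have an unadjusted p under 0.05 in edgeR. Among the members, Pls1 (0.93), Pdzk1 (0.93) and Cobl (0.92) correlated most with the enterocyte score of the 19 markers across the 8 libraries. Krt20 (0.90), Cdhr2 (0.88) and Vil1 (0.85) came next. Each of these genes had its highest value in WT library 3, the library with the highest score. Other brush border members correlated less, such as Myo7b (0.64), Ush1c (0.62), Myo6 (0.47), Eps8l3 (0.39), Myo1e (0.31) and Myo1d (0.30). The correlation was -0.043 for Krt8, -0.42 for Krt19, 0.010 for Flna and 0.039 for Pxn. These are descriptions of 8 points that share their library between both axes. The part of enterocyte content in the values of the members was not tested.

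In cKO library 3 the deviation of a member from its mean over the libraries correlated at 0.61 with the GC content of its transcripts over the 34 members, and at 0.56 over all genes tested. In the other 7 libraries the correlation lay between -0.43 (WT library 2) and 0.32 (cKO library 2) over the 34 members, and between -0.23 and -0.034 over all genes tested. The 6 members below their mean in cKO library 3 were Pls1, Eps8, Myo6, Anks4b, Krt20 and Tpm1, with a GC content of 43.8%, 46.7%, 44.4%, 44.8%, 49.5% and 50.6%. Other members in this range or below it were above their mean there. Cdc42, with the lowest GC content of the 34 (41.8%), was at 0.042 and Rhoa (45.1%) at 0.28. Rac1 (48.2%) was at 0.17 and Tpm3 (49.7%) at 0.99. Removing a trend on length and GC content from each library brought the median of the 34 fold changes from 0.067 to 0.0053. The part of GC content in single members was not tested.

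**Figure D2:**
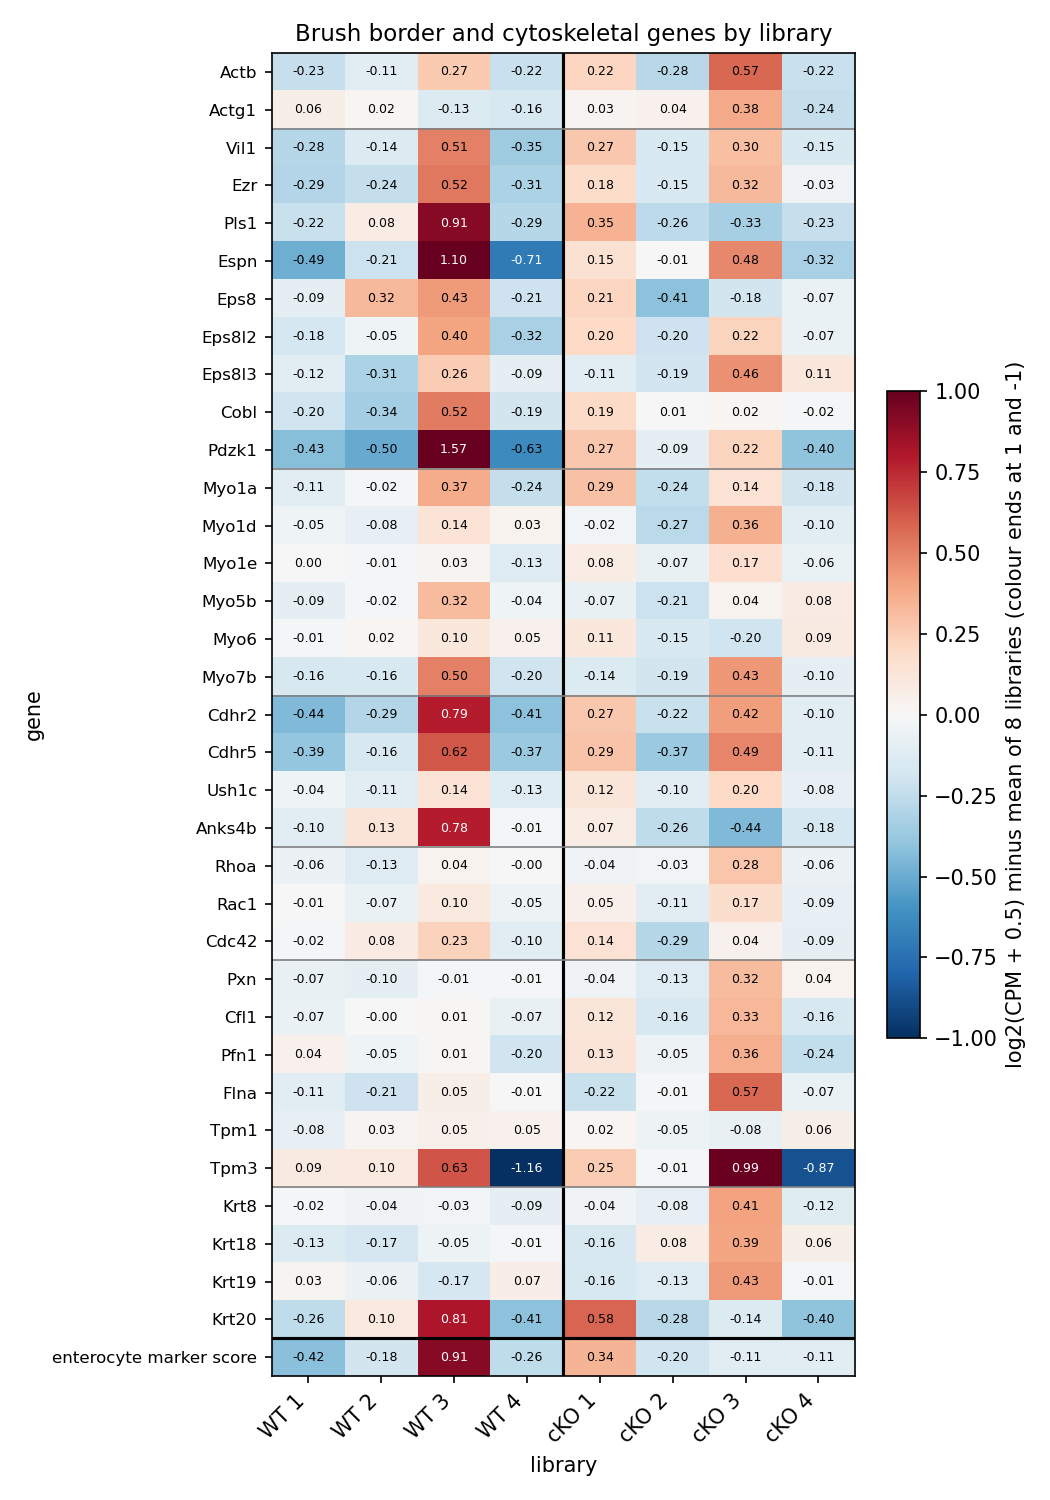
Deviation of each member from its mean over the 8 libraries, in log2 CPM, with members in rows by role and libraries in columns, and colours that end at 1 and -1. WT library 3 is high across the microvillus core and adhesion genes, and cKO library 3 is high in both actins and in most of the keratins and turnover genes.

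The actins were among the most abundant members. Compared per length, as FPKM (counts scaled by gene length and library total), Actb was at 655 and Actg1 at 429 as a mean over the 8 libraries. Actb (chromosome 5, 142903115 to 142906754, minus strand) encodes β-actin, which makes up much of the cortical and microvillar filaments. Its values were 1483, 1613, 2087 and 1487 CPM in WT libraries 1 to 4 and 2018, 1430, 2583 and 1488 CPM in cKO libraries 1 to 4. Libraries 3 of both groups and cKO library 1 were high, and the groups overlapped, with a log2 fold change of 0.17 ± 0.20 (SE). Actg1, encoding γ-actin, the other cytoplasmic isoform, was at 1192, 1162, 1043 and 1025 CPM in WT and at 1166, 1177, 1488 and 971 CPM in cKO (0.12 ± 0.14). Here only cKO library 3 lay above the WT range. Of the 50-base stretches of the Actg1 transcript 56.7% also occur in transcripts of 22 other annotated genes, and for Actb 14.2% in 18, so counts of both depend on how such reads were assigned, a step the sources used here do not describe.

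Within the microvillus core, Vil1 was the most abundant at 404 FPKM and Espn the least at 4.99 FPKM. Villin (Vil1, chromosome 1, 74409376 to 74435559, plus strand) bundles, caps and severs actin filaments. It was at 1167, 1290, 2017 and 1112 CPM in WT and at 1712, 1279, 1745 and 1280 CPM in cKO. WT library 3 was the highest and cKO libraries 1 and 3 followed, for a log2 fold change of 0.11 ± 0.20. Ezrin (Ezr), which anchors filaments to membrane proteins when phosphorylated, had 383, 396, 674 and 377 CPM in WT and 532, 421, 586 and 458 CPM in cKO (0.13 ± 0.20). The 3 highest libraries were the same as for Vil1, and the ratio of Vil1 to Ezr in FPKM was 2.84 ± 0.126 in WT and 2.79 ± 0.162 in cKO (SD, n = 4 each).

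Plastin 1 (Pls1), the intestinal fimbrin and another bundler, had 445, 547, 974 and 425 CPM in WT and 660, 433, 413 and 444 CPM in cKO. Its fold change was -0.30 ± 0.27, and 0.044 without WT library 3, so the sign rested on that library. Pdzk1, a PDZ scaffold that holds membrane transporters in the apical membrane, had 24.7, 23.4, 99.7 and 21.3 CPM in WT and 40.3, 31.2, 38.9 and 25.0 CPM in cKO. One library again set the sign: the estimate was -0.32 ± 0.54 with all libraries and 0.55 without WT library 3. Espn, encoding the bundler espin, spread almost as widely, from 23.5 to 83.4 CPM in WT and from 30.7 to 53.99 CPM in cKO (-0.011 ± 0.40). Cobl, encoding the actin nucleator cordon-bleu, ran from 112 to 204 CPM in WT and from 140 to 162 CPM in cKO (0.063 ± 0.18).

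Eps8, whose product caps filament ends at the microvillus tip, had a low estimate that kept its sign under every alternative tried. It was at 120, 160, 172 and 110 CPM in WT and at 148, 95.8, 113 and 122 CPM in cKO. The groups overlapped, with a log2 fold change of -0.23 ± 0.17 (unadjusted p = 0.205 in edgeR, adjusted 0.921). The estimates of its relatives were above 0 but smaller than their SE. They turned in 3 of 20 alternatives for Eps8l2 and in 1 for Eps8l3. Eps8l2 ran from 78.1 to 129 CPM in WT and from 84.8 to 114 CPM in cKO (0.059 ± 0.16). Eps8l3 had 159, 139, 207 and 162 CPM in WT and 160, 152, 237 and 187 CPM in cKO (0.14 ± 0.16).

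The unconventional myosins had a narrow range of estimates, from -0.090 to 0.056, and all 6 intervals lay within 1.5-fold. Myo1a, the class I motor that links the filament bundle to the lateral membrane of the microvillus, was the most abundant of them at 284 FPKM. It had 975, 1039, 1364 and 896 CPM in WT and 1290, 891, 1163 and 929 CPM in cKO. The means were nearly identical, a CPM of 1068 ± 205 in WT and of 1068 ± 190 in cKO (SD, n = 4 each), and the interval of the fold change ran from 0.773 to 1.29. Myo1e, another class I myosin and the least abundant at 12.4 FPKM, ranged from 65.5 to 72.8 CPM in WT and from 67.9 to 80.3 CPM in cKO.

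Myo7b, the motor of the adhesion complex at microvillus tips, ran from 365 to 594 CPM in WT and from 368 to 566 CPM in cKO, with both libraries 3 on top. Myo5b, which carries recycling endosomes to the apical membrane, had 255, 268, 338 and 263 CPM in WT and 257, 233, 278 and 286 CPM in cKO (-0.090 ± 0.12). Myo6, which moves toward the base of the microvillus, ran from 372 to 404 CPM in WT and from 327 to 405 CPM in cKO (-0.070 ± 0.11). Myo1d, a further class I myosin of the brush border, ran from 394 to 458 CPM in WT and from 345 to 535 CPM in cKO (-0.0042 ± 0.14).

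In the intermicrovillar adhesion complex, the protocadherins Cdhr2 and Cdhr5 form the links between tips, and harmonin (Ush1c) and Anks4b hold them to Myo7b inside the cell. Anks4b (chromosome 7, 120173858 to 120185586, plus strand) had the smallest p of the 34 and was at 112, 131, 207 and 119 CPM in WT and at 126, 100, 88.5 and 106 CPM in cKO. In cKO 3 values lay below every WT value, and cKO library 1 lay among the WT values. The means were 142 ± 43.9 and 105 ± 15.8 CPM (SD, n = 4 each), a log2 fold change of -0.43 ± 0.19 and a fold interval from 0.551 to 0.995. The unadjusted p of edgeR was 0.0466, which ranked 537 among all genes tested, and the adjusted p was 0.921.

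The estimate for Anks4b depended on the libraries that stood apart, WT library 3 having its highest value and cKO library 3 its lowest. Without WT library 3 it was -0.20 (unadjusted p = 0.167 in edgeR), without cKO library 3 it was -0.36, and without both -0.12. With the trend on length and GC content removed it was -0.33 (unadjusted p = 0.0809 in edgeR). It stayed below 0 in all 20 alternatives.

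The other 3 genes of the complex had estimates above 0. Cdhr2 had 402, 446, 944 and 412 CPM in WT and 658, 469, 729 and 508 CPM in cKO (0.10 ± 0.28). Cdhr5, the most abundant of the complex at 199 FPKM, ran from 408 to 819 CPM in WT and from 413 to 747 CPM in cKO (0.12 ± 0.25). Ush1c was steadier, from 171 to 206 CPM in WT and from 174 to 215 CPM in cKO (0.072 ± 0.11).

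**Figure D3:**
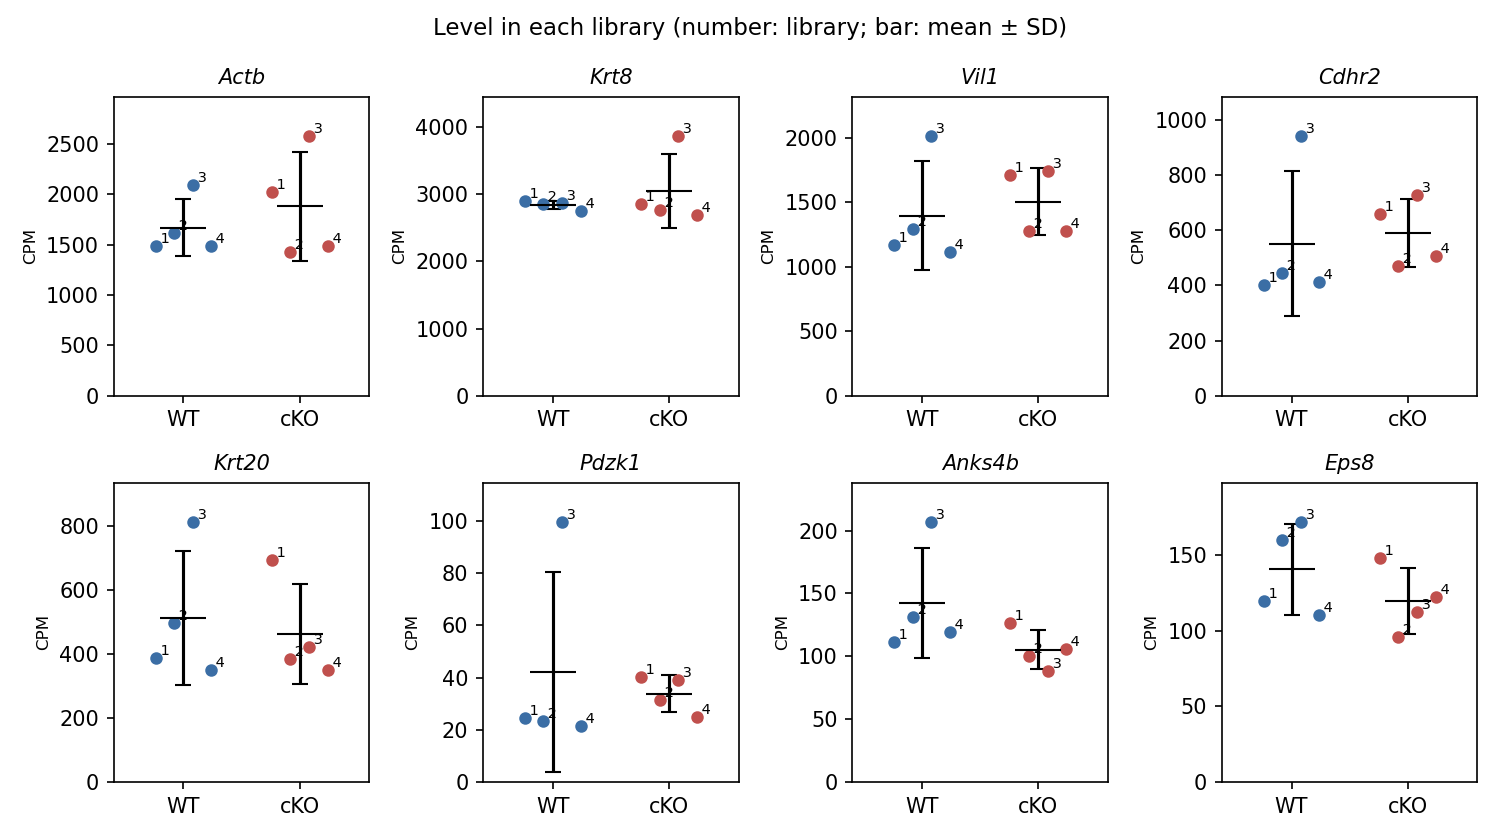
CPM of 8 members in each library (points, numbered by library), WT and cKO side by side, with the mean ± SD of each group (bars). For Anks4b 3 cKO values lie below all 4 WT values, while for Vil1, Cdhr2, Krt20 and Pdzk1 the highest point of all is WT library 3.

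The sequence just upstream of the start is shown for 3 members that were high in WT library 3 and whose windows hold a motif of an intestinal or actin-related factor. The windows are the 250 bases before the RefSeq start on GRCm38.p6, 5′ to 3′ on the strand of the gene, with the motif in capitals. Vil1 (chr1:74409134-74409383, plus strand) holds a CArG box, the element bound by serum response factor (SRF), a regulator of actin genes. Anks4b (chr7:120173608-120173857, plus strand) holds a match to the HNF4 motif CAAAGTNCA, here on the opposite strand, HNF4 being a nuclear receptor of enterocytes. Krt20 (chr11:99438154-99438403, minus strand) holds the CDX motif CNATAAA, which overlaps a TATA box, TATAAA.
Vil1: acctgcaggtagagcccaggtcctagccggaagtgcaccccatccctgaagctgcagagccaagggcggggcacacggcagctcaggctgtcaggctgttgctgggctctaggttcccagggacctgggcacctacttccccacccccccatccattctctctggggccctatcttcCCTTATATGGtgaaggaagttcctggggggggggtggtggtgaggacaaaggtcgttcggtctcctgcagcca
Anks4b: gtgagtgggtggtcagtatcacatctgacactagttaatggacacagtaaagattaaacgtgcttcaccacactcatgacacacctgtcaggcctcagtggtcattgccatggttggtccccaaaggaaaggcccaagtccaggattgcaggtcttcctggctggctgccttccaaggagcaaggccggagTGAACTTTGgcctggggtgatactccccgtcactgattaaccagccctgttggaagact
Krt20: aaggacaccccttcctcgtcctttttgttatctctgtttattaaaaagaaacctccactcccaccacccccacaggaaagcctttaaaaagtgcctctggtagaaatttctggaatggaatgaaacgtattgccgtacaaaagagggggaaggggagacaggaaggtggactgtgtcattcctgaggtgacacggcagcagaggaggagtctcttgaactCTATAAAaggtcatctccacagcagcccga

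RefSeq promoters were found for 26 of the 34 genes, 32 windows in all, and both strands were searched. The CArG box was in 3 of the 32 windows (Actg1, Myo1e and Vil1), against 1.47% of all 32851 windows. The HNF4 motif was in 1 (Anks4b), against 1.19%, and the CDX motif in 3 (Espn, Krt20 and Myo1e), against 9.81%. In Myo1e the CDX letters lie inside the CArG box, so the same stretch is counted for both. TATAAA, which overlaps the CDX letters where C precedes it, was in 2 (Cdc42 and Krt20), against 12.4%. The GC box GGGCGG was in 16 windows, against 32.7%. Pdzk1, Cdhr2 and Pls1 stood out more in WT library 3 than the 3 members shown. Their windows hold no CArG, HNF4, CDX or TATAAA match. A match describes letters, not a bound site, and a link between motifs and that library was not tested.

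The small GTPases Rhoa, Rac1 and Cdc42 are switches through which signals reach actin, and their RNA varied little. RhoA (Rhoa), which drives contractile fibres, had 279, 267, 300 and 291 CPM in WT and 284, 286, 354 and 281 CPM in cKO (0.084 ± 0.11). Rac1, which drives branched networks at the cell edge, had 323, 310, 348 and 313 CPM in WT and 337, 300, 367 and 306 CPM in cKO (0.018 ± 0.11). Cdc42, which sets cell polarity, had 344, 367, 407 and 324 CPM in WT and 384, 285, 358 and 327 CPM in cKO (-0.091 ± 0.12). The groups overlapped for all 3, and each fold interval lay within 1.5-fold. Cdc42 was the most abundant at 117 FPKM and Rhoa the least at 38.6 FPKM. These are RNA levels and say nothing of the share of each protein bound to GTP.

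Among the genes for filament turnover, crosslinking and adhesion, Pfn1 was the most abundant at 248 FPKM and Flna the least of all 34 at 2.18 FPKM. Paxillin (Pxn), an adaptor of focal adhesions, had 178, 174, 186 and 186 CPM in WT and 183, 172, 233 and 192 CPM in cKO (0.11 ± 0.11). Profilin 1 (Pfn1), which loads actin monomers with ATP, had 617, 581, 603 and 522 CPM in WT and 655, 577, 771 and 506 CPM in cKO (0.11 ± 0.14). Cofilin 1 (Cfl1), which severs old filaments, ran from 537 to 569 CPM in WT and from 506 to 710 CPM in cKO. In each of these, cKO library 3 had the highest value.

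Filamin A (Flna), a crosslinker of cortical actin, had 18.9, 17.6, 21.3 and 20.4 CPM in WT and 17.5, 20.3, 30.6 and 19.5 CPM in cKO (0.17 ± 0.17), with the same library on top. Tpm1, encoding a tropomyosin that coats filaments, had the smallest SE of all members, from 285 to 312 CPM in WT and from 286 to 313 CPM in cKO (-0.022 ± 0.095).

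Tpm3, encoding another tropomyosin, needed its near-copy Tpm3-rs7 beside it. Tpm3 lies on chromosome 3 (90072649 to 90100902, plus strand) and Tpm3-rs7 on chromosome 14 (113314608 to 113316754, plus strand). Their coding sequences of 747 bases differ at 3 bases, an identity of 99.6%, and all 3 fall in a window of 90 bases, coding positions 38 to 127, from the GENCODE M21 transcripts on GRCm38. It is shown 5′ to 3′ with the differing bases in capitals, since these are the only bases that differ between the coding sequences of the 1 transcript compared for each gene.
Tpm3: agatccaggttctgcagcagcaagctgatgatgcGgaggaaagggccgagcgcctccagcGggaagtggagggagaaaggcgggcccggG
Tpm3-rs7: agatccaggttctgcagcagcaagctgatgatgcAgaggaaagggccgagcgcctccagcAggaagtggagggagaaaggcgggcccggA

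Tpm3 was at 273, 275, 397 and 114 CPM in WT and at 306, 254, 511 and 140 CPM in cKO (log2 fold change 0.19 ± 0.46). Tpm3-rs7 was at 169, 166, 41.5 and 278 CPM in WT and at 189, 145, 59.7 and 252 CPM in cKO. Where one was high the other was low: Tpm3-rs7 took 9.46% of the summed counts in WT library 3 and 10.5% in cKO library 3, but 70.9% and 64.3% in libraries 4 and 36.4% to 38.2% in libraries 1 and 2. The sum was far steadier, 442, 441, 439 and 393 CPM in WT and 495, 400, 571 and 392 CPM in cKO. Its means were 429 ± 23.8 and 464 ± 85.0 CPM (SD, n = 4 each; exact permutation test, two-sided p = 0.457). In both genotypes library 3 had the lowest share of Tpm3-rs7 and library 4 the highest, and what set the split was not tested.

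**Figure D4:**
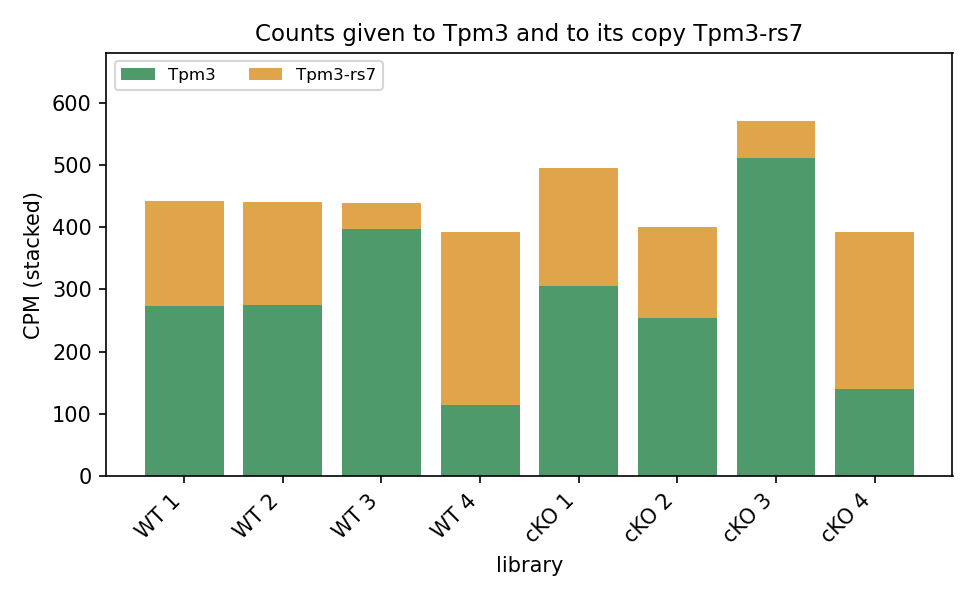
CPM of Tpm3 and Tpm3-rs7 stacked in each of the 8 libraries. The total stays between 392 and 571 CPM while the share of Tpm3-rs7 runs from 9.46% to 70.9%.

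The keratins included the most abundant member, Krt8, at 1488 FPKM. Keratin 8 (chromosome 15, 101996698 to 102004482, minus strand) pairs with keratins 18, 19 and 20 to form the filaments of the terminal web. Krt8 was at 2898, 2856, 2866 and 2757 CPM in WT and at 2855, 2772, 3878 and 2694 CPM in cKO (0.10 ± 0.14). Its cKO SD of 556 CPM, against 60.6 CPM in WT, came with the 1 value of cKO library 3. Of the 50-base stretches of Krt8 26.9% also occur in 1 other annotated gene, the pseudogene Krt8-ps.

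Krt18, the least abundant at 184 FPKM, was at 242, 236, 256 and 264 CPM in WT and at 237, 280, 348 and 276 CPM in cKO. In cKO 3 values lay above the WT range, and the fold change was 0.19 ± 0.13 (unadjusted p = 0.152 in edgeR) and 0.083 without cKO library 3. Krt19 ran from 1526 to 1793 CPM in WT and from 1535 to 2303 CPM in cKO (0.083 ± 0.15). Krt20, the keratin of mature villus cells, followed the enterocyte score instead, with 388, 497, 812 and 349 CPM in WT and 693, 383, 421 and 350 CPM in cKO. Its estimate was -0.15 ± 0.30 and turned to 0.17 without WT library 3.

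Ratios between functional partners compare members within a library. Over 18 pairs, 0 passed an adjusted p of 0.05, and the smallest adjusted p in the exact permutation tests was 0.514. Eps8l2 over Eps8 in FPKM was 1.66, 1.36, 1.72 and 1.63 in WT and 1.74, 2.04, 2.33 and 1.76 in cKO. Every cKO value lay above every WT value, with a log2 difference of 0.30 ± 0.13 (SE) and a two-sided exact permutation p = 0.0286, the smallest that 4 against 4 can give. Ush1c over Anks4b was 1.65, 1.34, 1.01 and 1.45 in WT and 1.64, 1.76, 2.46 and 1.69 in cKO (exact permutation p = 0.0571, two-sided). Here cKO library 1 lay just inside the WT range.

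Vil1 over Pls1 was 2.87, 2.58, 2.27 and 2.86 in WT and 2.84, 3.23, 4.62 and 3.16 in cKO (exact permutation p = 0.0857, two-sided). In these 3 pairs the gene on top has the higher GC content, 56.6% against 46.7%, 56.6% against 44.8% and 53.7% against 43.8%, and cKO library 3 has the highest ratio. Without both libraries 3 the log2 difference was 0.25 for Eps8l2/Eps8, 0.20 for Ush1c/Anks4b and 0.15 for Vil1/Pls1. The part of GC content in these ratios was not tested. Other pairs had steadier ratios. Pfn1 over Cfl1 was 1.03 ± 0.071 in WT and 1.05 ± 0.058 in cKO, and Krt8 over Krt18 was 8.39 ± 0.565 and 7.86 ± 0.789 (SD, n = 4 each).

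**Figure D5:**
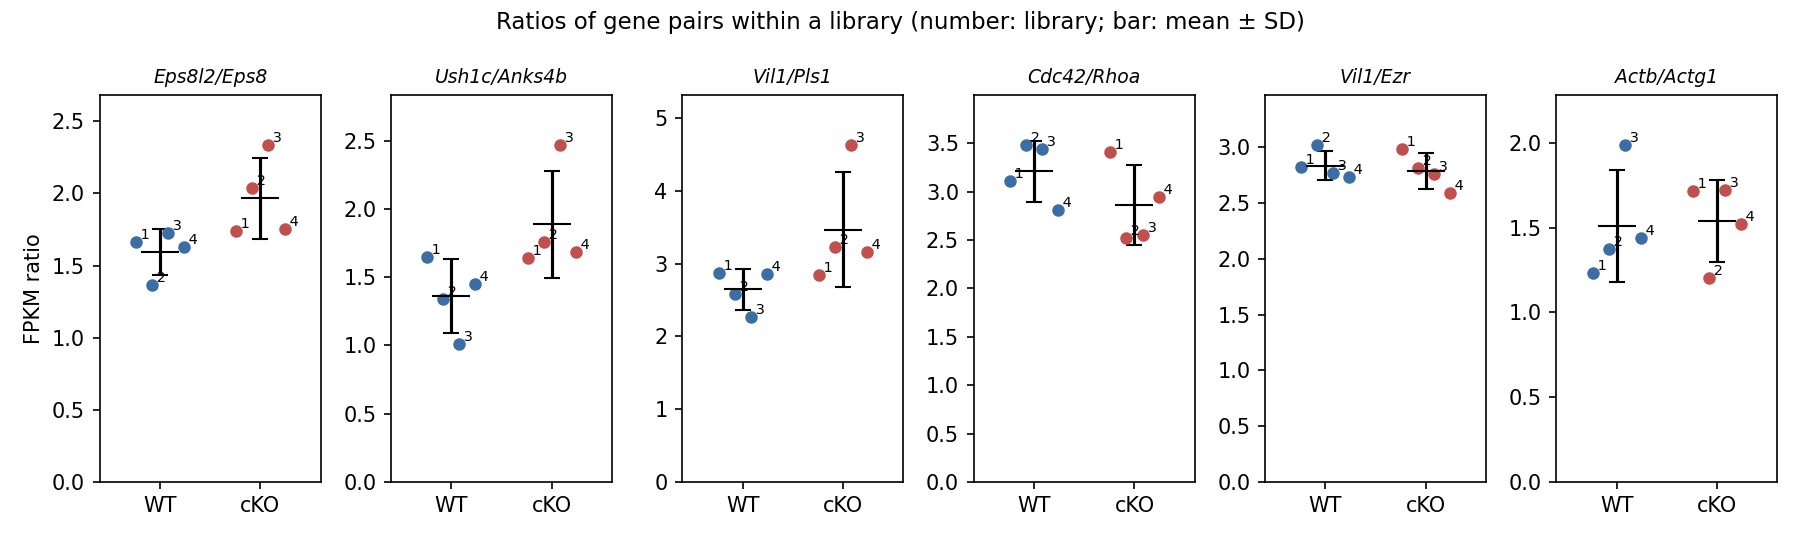
Ratio of FPKM within each library for 6 of the 18 pairs (points, numbered by library), on linear axes from 0, WT and cKO side by side with the mean ± SD of each group (bars). For Eps8l2 over Eps8 the 4 cKO points lie above the 4 WT points, and for the other pairs drawn the groups overlap.

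Other genes of the same structures were read from lists beyond the 34, and 0 in any list passed the adjusted threshold. Among 32 further brush border genes the median log2 fold change was -0.029, and Mal2, a protein of apical transport, was at -0.44 ± 0.20. Of 35 tested genes of filament assembly 0 had an unadjusted p under 0.05, and the smallest were those of Tmod3, a tropomodulin that caps pointed ends (-0.28 ± 0.15), and Wasl, an activator of the Arp2/3 complex (-0.18 ± 0.11). Tmod3 was the 1 gene of this list whose groups did not overlap, with the lower values in cKO, against 1.80% of all genes.

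Of 33 regulators and effectors of the small GTPases 1 had an unadjusted p under 0.05 with the higher value in cKO, against 1.83% of all genes. It was Rhob, an endosomal GTPase, with a CPM of 28.0 ± 7.79 in WT against 38.6 ± 6.60 in cKO (0.46 ± 0.19). Limk1, the kinase that inactivates cofilin, was at 0.63 ± 0.32 on the log2 scale and at 0.26 without cKO library 3. Among 27 tested contractile and focal adhesion genes, 1 had an unadjusted p under 0.05 with the lower value in cKO, against 2.07% of all genes. It was Lpp, a LIM protein of adhesions, at -0.26 ± 0.10, and it was also the 1 gene of the list whose groups did not overlap, against 1.80% of all genes on this side. Mylk, myosin light chain kinase, was at -0.25 ± 0.12. Of 12 tested SRF pathway genes 0 had such a p, and the list had a median log2 fold change of 0.13, with Junb, an immediate-early factor, at 0.37 ± 0.17 and Cyr61, a secreted matrix protein, at 0.66 ± 0.37.

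The list with the most genes lower in cKO at an unadjusted p under 0.05 in edgeR was other epithelial keratins and plaque genes. It holds keratins outside the members and linkers of keratin filaments. Among the linkers are genes of desmosomes, which anchor these filaments. Of 14 tested, 3 had an unadjusted p under 0.05 with the lower value in cKO, against 2.07% of all genes, and the same number had groups that did not overlap, against 1.80%. The median of the list was -0.12. Evpl, encoding the plaque protein envoplakin, was at 29.9, 26.9, 41.0 and 28.1 CPM in WT and at 21.4, 26.7, 22.5 and 19.1 CPM in cKO (-0.49 ± 0.16, unadjusted p = 0.0107 in edgeR). Dsp, encoding desmoplakin, which ties keratins to the desmosome, was at 705, 663, 736 and 612 CPM in WT and at 463, 611, 549 and 578 CPM in cKO (-0.30 ± 0.12, unadjusted p = 0.0294 in edgeR). The third, Dsc2, a desmosomal cadherin, was named after its values were seen (-0.27 ± 0.11). The adjusted p was 0.921 for each, so none is a call, and among the members themselves 3 of 4 keratins had estimates above 0. The groups of Evpl stood clear of each other only by 26.9 against 26.7 CPM. The lists were chosen with earlier results of these data known, so the shares of this list are a description and no test of it.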

How the data were processed

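RNA of 4 WT and 4 cKO libraries was sequenced and, per the labels' protocols, processed with Hisat2 and Stringtie. Neither versions nor build, counting program or strand are stated in the sources. The authors deposited whole-number read counts per gene, not normalized, and FPKM for the same genes. The library total implied by the FPKM was 0.955 to 1.06 of the column total of counts.

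Counts were tested in edgeR 4.0.16 (R 4.3.3): TMM factors, default filter on low counts, quasi-likelihood F-test with robust fit, genotype as the only term, Benjamini-Hochberg adjustment over all genes tested. CPM use TMM-scaled totals. FPKM served to compare genes and for ratios, which were tested by exact permutation and adjusted over 18 pairs. List scores used log2(CPM + 0.5). GC content was known for 98.3% of tested genes. The fit was also run on simulated counts, drawn independently for each gene and library. They held no shift shared by genes of 1 library, so that run does not speak to such shifts here.

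Values in every library are given for the 12 members with the smallest p and for Actb, Actg1, Vil1, Ezr, Myo1a, Rhoa, Rac1, Cdc42, Pxn, Krt8 and Krt20, with Cdhr2, Pdzk1, Tpm3 and Tpm3-rs7 added after their values were seen. Each other list gives its 2 genes with the smallest p, except 1 gene that is not reported here. Members and lists were chosen with earlier results of these data known.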

Additional observations from a re-analysis of the deposited data

Results flagged for a closer look

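In 128 groups of 4 values, from members, named list genes and ratios, a single value was set apart from the other 3 in 19, by Dixon's criterion at 95%. Chance gives about 1 in 20 groups, and values of 1 library are not independent.

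WT library 3 held most of the isolated high values. It had 674 CPM of Ezr (others 377 to 396), 83.4 of Espn (23.5 to 33.3) and 204 of Cobl (112 to 124). It had 99.7 CPM of Pdzk1 (21.3 to 24.7), 338 of Myo5b (255 to 268) and 594 of Myo7b (365 to 376). It had 944 CPM of Cdhr2 (402 to 446) and 819 of Cdhr5 (408 to 475). Outside the members it had 39.6 CPM of Rhob (23.1 to 24.8) and 71.1 of Junb (45.9 to 49.4).

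The cKO library 3 had 566 CPM of Myo7b (others 368 to 392), 354 of Rhoa (281 to 286), 3878 of Krt8 (2694 to 2855) and 8.09 of Limk1 (3.34 to 3.97). Its ratio of Ush1c to Anks4b was 2.46 (1.64 to 1.76). The cKO library 1 had 660 CPM of Pls1 (413 to 444) and 162 of Cobl (140 to 144). WT library 4 had a low 162 CPM of Lpp (167 to 168) and a low ratio of Rac1 to Rhoa, 1.79 (1.93 to 1.94).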

How the results depend on the processing

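Over 20 alternatives no member passed the adjusted threshold. The sign held in all for Vil1, Ezr, Eps8, Anks4b, Pxn and Krt18, and turned in at least 1 for the other 28, in 89 of 680 estimates. The interval lay within 1.5-fold for 21 to 29 members, and the members' median ran from -0.026 without cKO library 3 to 0.13 without WT library 3. Of 18 ratios, 8 kept their sign in all 12 alternatives. The lowest member by CPM, Flna, had at least 17.5 CPM in each library. The causes of the turns were not tested.

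The count of genes called among all genes, 2 with edgeR, was 41 with DESeq2, 10 without a filter, 4 without both libraries 3, and 0 with the replicate block and with limma on log2(FPKM + 0.1), mean FPKM at least 0.5, or log2(FPKM + 1). It was 0 to 3 leaving out 1 library.

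Same-numbered libraries correlated at -0.13, 0.10, 0.14 and 0.16 in their deviations and the others at -0.19 to 0.17. The cKO libraries 3 and 4 correlated best with the WT library of their own number (0.14 and 0.16), while cKO libraries 1 and 2 did not. The Tpm3-rs7 share also went with the number for libraries 3 and 4. Since the match did not hold for every number, the unpaired fit was kept as the main one. Whether the numbers pair libraries is not known. Under the replicate block, the turned log2 fold changes were Espn 0.15, Pdzk1 0.0082, Myo1a 0.00096 and Myo7b 0.0062.

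Upper-quartile factors turned Espn (0.010), Myo1a (0.012), Myo1d (0.0095) and Myo7b (0.015). Length and GC offsets turned Eps8l2 (-0.042), Myo6 (0.085), Ush1c (-0.036), Cdc42 (0.10), Pfn1 (-0.019), Krt8 (-0.022) and Krt19 (-0.039). On log2(FPKM + 0.1), with and without the minimum, Espn was at 0.15, Myo1a at 0.00030 and Myo7b at 0.0051. On log2(FPKM + 1) they were at 0.11, 0.00030 and 0.0050, and the ratio Vil1/Espn at 0.026. Voom quality weights turned Actb (-0.0022), Actg1 (-0.067), Espn (0.20), Pdzk1 (0.19), Myo1e (-0.012), Myo7b (0.0080), Rac1 (-0.032), Cfl1 (-0.060), Pfn1 (-0.059), Tpm1 (0.015), Tpm3 (-0.23), Krt8 (-0.033) and Krt19 (-0.039). Without both libraries 3, chosen with the earlier results known, those turned were Actg1 (-0.028), Pls1 (0.12), Espn (0.41), Pdzk1 (0.48), Myo1a (0.096), Myo6 (0.0046), Myo7b (0.032), Rac1 (-0.0043), Cfl1 (-0.011), Tpm1 (0.013), Krt8 (-0.033), Krt19 (-0.11), Krt20 (0.21) and the ratios Krt20/Krt8 (0.19), Myo1a/Myo1e (0.055) and Vil1/Actb (0.16).

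Leaving out 1 library at a time, the members that turned ranged as follows: Actb -0.019 to 0.30, Actg1 -0.00076 to 0.21, Cdhr2 -0.017 to 0.49, Cdhr5 -0.026 to 0.42, Cfl1 -0.026 to 0.15, Cobl -0.033 to 0.29, Eps8l2 -0.032 to 0.23, Eps8l3 -0.0055 to 0.26, Espn -0.21 to 0.57, Flna -0.033 to 0.27, Krt19 -0.068 to 0.15, Krt20 -0.41 to 0.17 and Krt8 -0.036 to 0.16. The rest were Myo1a -0.10 to 0.14, Myo1d -0.14 to 0.088, Myo5b -0.13 to 0.011, Myo7b -0.17 to 0.20, Pdzk1 -0.54 to 0.55, Pfn1 -0.0027 to 0.21, Pls1 -0.48 to 0.044, Rac1 -0.041 to 0.066, Rhoa -0.0027 to 0.12 and Tpm3 -0.18 to 0.46. Among ratios these were Actb/Actg1 -0.049 to 0.18, Cdhr2/Cdhr5 -0.015 to 0.089, Krt20/Krt8 -0.45 to 0.040, Myo1a/Myo1d -0.079 to 0.10, Myo1a/Myo1e -0.13 to 0.054, Pfn1/Cfl1 -0.0069 to 0.073, Tpm1/Tpm3 -0.54 to 0.17, Vil1/Actb -0.057 to 0.079, Vil1/Espn -0.23 to 0.097 and Vil1/Ezr -0.061 to 0.0071.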
